A study of Mus musculus with 8 samples.

Results

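Thymic stromal lymphopoietin (TSLP), interleukin 33 and interleukin 18 are cytokines that epithelial cells release on damage, and were followed here with their receptors in mouse epidermis from conditional knockouts of the histone methyltransferase G9a. The set comprised 10 genes: the ligands Tslp, Il33 and Il18, the receptor genes Crlf2, Il7r, Il1rl1, Il18r1, Il4ra and Il13ra1, and Il18bp, a soluble inhibitor. All probe sets that the platform annotation assigns to these genes were taken, each on its own. This gave 12 of 45037 probe sets, for 8 of the 10 genes: 3 for ligands, 8 for receptors, 5 of them for Il13ra1, and 1 for Il18bp. Il7r and Il1rl1 have no probe set named here and were not analysed. The genes were chosen with earlier results of the same comparison known, among them differences in Crlf2, Tslp, Il18 and Il33. Their cKO and WT values are therefore a description. Counts past a threshold are given beside those of all probe sets and support nothing about these genes.

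Expression was measured on 1-colour arrays in interfollicular epidermis, the part of the skin epithelium that lies outside hair follicles. RNA came from animals labelled G9a cKO, a conditional knockout, on 4 arrays, and from animals labelled G9a WT on 4 arrays. Both genotypes were treated alike: DMBA at 0.25 mg/ml, a carcinogen, and TPA at 0.02 mg/ml, a tumour promoter, were put on the back skin in volumes of 200 µl once a week for 6 weeks, starting at 8 weeks of age. The animals are labelled as 15 weeks old. The skin was pre-neoplastic, and no untreated skin is among these samples. The sources used here do not give the driver of the deletion, the part of the gene removed, or whether each replicate was a separate animal. A p-value below therefore weighs a difference only against the spread of these arrays within each genotype, which may be technical. It may not extend to other animals.

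TSLP, made by keratinocytes, binds a receptor formed by the Crlf2 product and the interleukin 7 receptor alpha chain, and acts through JAK and STAT proteins on dendritic cells, T cells and innate lymphoid cells. IL-33, stored in the nucleus and released from damaged cells, binds ST2, the product of Il1rl1, while IL-18 is made as a precursor that caspase-1 cleaves and binds the product of Il18r1. Both receptors are of the interleukin 1 receptor family and signal through MyD88, and the Il18bp product captures free IL-18. The Il4ra and Il13ra1 products together form the receptor by which non-immune cells such as keratinocytes respond to IL-4 and IL-13, the type 2 cytokines that TSLP and IL-33 elicit.

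Ehmt2, the gene of G9a, has 2 probe sets. At 1460692_PM_at the log2 level was 6.61 ± 0.36 on cKO arrays and 9.49 ± 0.28 on WT arrays (SD, 4 arrays each), a 7.37-fold lower level in cKO (limma adjusted p = 0.000244). At 1426888_PM_at it was 8.36 ± 0.06 on cKO arrays and 8.35 ± 0.12 on WT arrays, and whether that probe set lies in the deleted part was not tested. Markers of keratinocytes averaged 11.36 to 11.46 per cKO array and 11.39 to 11.47 per WT array, over 12 probe sets. For 11 other cell types that skin can hold, 13 of 82 marker probe sets reached the median level of all probe sets. Among these were Cd74 and H2-Aa, genes of antigen presentation, whose 4 probe sets stood 0.11 to 0.49 higher in cKO with an SE of 0.23 to 0.32 (limma adjusted p of 0.804 to 0.981). Without the arrays cKO 2 and WT 4 these 4 differences were between -0.21 and 0.04. None of the marker probe sets passed the test between genotypes, and the medians of the lists lay between -0.01 and 0.08. On the first principal component over all probe sets, WT 4 (-23.5) lay beside cKO 3 (-18.0) and cKO 4 (-19.2) and far from the other WT arrays (11.4 to 20.6). The array cKO 2 (10.7) lay nearest to those other WT arrays. On the second component the genotypes stood apart, with cKO arrays at 7.35 to 20 and WT arrays at -21.2 to -2.58. There cKO 2 (20) and WT 4 (-21.2) lay furthest out, each on the side of its own genotype. The first component alone led to a fit without both cKO 2 and WT 4. The arrays left stood apart by genotype on that component too, cKO at -19.2 to 0.54 and WT at 11.4 to 20.6. Differences that follow this component therefore shift in that fit through the choice of arrays. Its differences and p-values are a description and no added support. Printed differences of named genes are also given from that fit where they turn in sign or move by over 1.5 times.

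The promoters of Crlf2, Il18 and Il33 are of unlike base composition. For Tslp no window was used here. Their windows are shown because these genes gave the lowest and 2 highest differences among the members with a window (250 bases before to 50 after the transcript start, RefSeq, build GRCm38.p6, 5′ to 3′), with each CpG dinucleotide in capitals.
Crlf2, chr5:109558944-109559243, minus strand: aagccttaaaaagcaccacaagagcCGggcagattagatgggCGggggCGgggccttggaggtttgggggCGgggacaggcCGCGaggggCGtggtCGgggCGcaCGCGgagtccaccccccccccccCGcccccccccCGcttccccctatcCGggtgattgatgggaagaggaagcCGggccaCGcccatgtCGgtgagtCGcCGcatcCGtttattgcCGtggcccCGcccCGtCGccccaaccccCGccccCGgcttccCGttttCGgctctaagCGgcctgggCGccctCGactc
Il18, chr9:50554450-50554749, plus strand: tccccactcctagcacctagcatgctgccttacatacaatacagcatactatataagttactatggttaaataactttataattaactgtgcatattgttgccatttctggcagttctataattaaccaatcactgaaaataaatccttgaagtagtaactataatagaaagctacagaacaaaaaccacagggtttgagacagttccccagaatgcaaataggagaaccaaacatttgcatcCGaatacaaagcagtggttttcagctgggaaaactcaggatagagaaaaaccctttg
Il33, chr19:29924863-29925162, plus strand: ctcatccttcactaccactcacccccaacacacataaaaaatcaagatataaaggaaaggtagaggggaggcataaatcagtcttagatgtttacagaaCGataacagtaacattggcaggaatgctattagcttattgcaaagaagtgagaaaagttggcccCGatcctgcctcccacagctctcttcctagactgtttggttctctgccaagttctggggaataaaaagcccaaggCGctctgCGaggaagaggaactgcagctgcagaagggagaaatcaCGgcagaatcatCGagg
The Crlf2 window holds 31 CpG, and 90.5% of 32851 mouse promoter windows hold as many or fewer. The Il18 window holds 1, which 14.1% of windows do not exceed, and the Il33 window 6, which 47.9% do not exceed. A second Il33 window, at a start farther downstream, holds 5. Of the receptors that differed little between genotypes, Il13ra1 and Il4ra have windows nearly as rich as that of Crlf2, with 28 and 25 CpG, and the 3 windows of Il18r1 hold 5 to 8. The letters TGANTCA, to which AP-1 factors bind in TPA-responsive genes, were found in 7.81% of all windows. None of the 13 windows of the 9 member genes that have one held them on either strand. The NF-kB consensus motif was found in the window of Il4ra alone, and in 8.46% of all windows. With 13 windows, several of the same gene, neither motif is read against its share.

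Among the ligands, Tslp was lower and Il33 and Il18 were higher in cKO. At its only probe set, 1450004_PM_at, Tslp read 5.77, 5.56, 5.80 and 5.88 on cKO arrays 1 to 4, against 6.05, 6.45, 6.46 and 6.49 on WT arrays 1 to 4 (log2). The groups did not overlap, and WT 1 stood nearest to the cKO arrays. The means were 5.75 ± 0.14 in cKO and 6.36 ± 0.21 in WT, a difference of -0.61 (SE 0.11; log2, n = 4 each), or 1.53-fold lower in cKO. The mean over all 8 arrays lay only a little above the median of all probe sets, at 5.75, and the cKO arrays lay close to it. The values carry no detection call, so that a level above background was not shown in cKO.

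Il33, the nuclear alarmin, was higher in cKO, and read well above the array medians of 5.72 to 5.80 in both genotypes. At 1416200_PM_at it stood at 9.15, 9.26, 9.30 and 9.37 on the cKO arrays, against 8.79, 9.02, 8.91 and 8.84 on the WT arrays. Every cKO array was above every WT array, with means of 9.27 ± 0.09 in cKO and 8.89 ± 0.10 in WT. The difference of 0.38 (SE 0.07) corresponds to a level 1.30-fold higher in cKO. At 1417932_PM_at, Il18 read 7.46, 7.47, 7.63 and 7.75 on the cKO arrays, against 6.75, 7.28, 6.95 and 7.02 on the WT arrays. The groups did not overlap, and WT 2 came closest to cKO. The means were 7.58 ± 0.14 in cKO and 7.00 ± 0.22 in WT, 0.58 apart (SE 0.11), or 1.49-fold higher in cKO. In RNA from many cells together, a change in the number of cells of a type and a change in RNA per cell cannot be told apart.

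Crlf2, the receptor chain specific to TSLP, had the largest difference of the 12 probe sets. At 1418097_PM_a_at it read 6.69, 6.67, 6.56 and 6.53 on the cKO arrays, against 7.48, 7.23, 7.37 and 7.38 on the WT arrays. The groups stood well apart, with a gap wider than the range within either group. The means were 6.61 ± 0.08 in cKO and 7.36 ± 0.10 in WT, so that Crlf2 was lower by 1.68-fold (difference -0.75, SE 0.06). The ligand Tslp and its receptor chain Crlf2 were thus both lower in cKO. Which cells carried the Crlf2 transcript was not tested. Langerhans and dendritic cells are a population that responds to TSLP. Their markers had a mean level of 5.80 to 6.13 per cKO array and 5.58 to 6.04 per WT array over 12 probe sets. The median difference was 0.04. Only 4 of the 12, those of Cd74 and H2-Aa, reached the median level of all probe sets. The Langerhans cell marker Cd207 read 4.50 to 4.78 over the 8 arrays, so a change in these cells could not be judged.

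**Figure D1:**
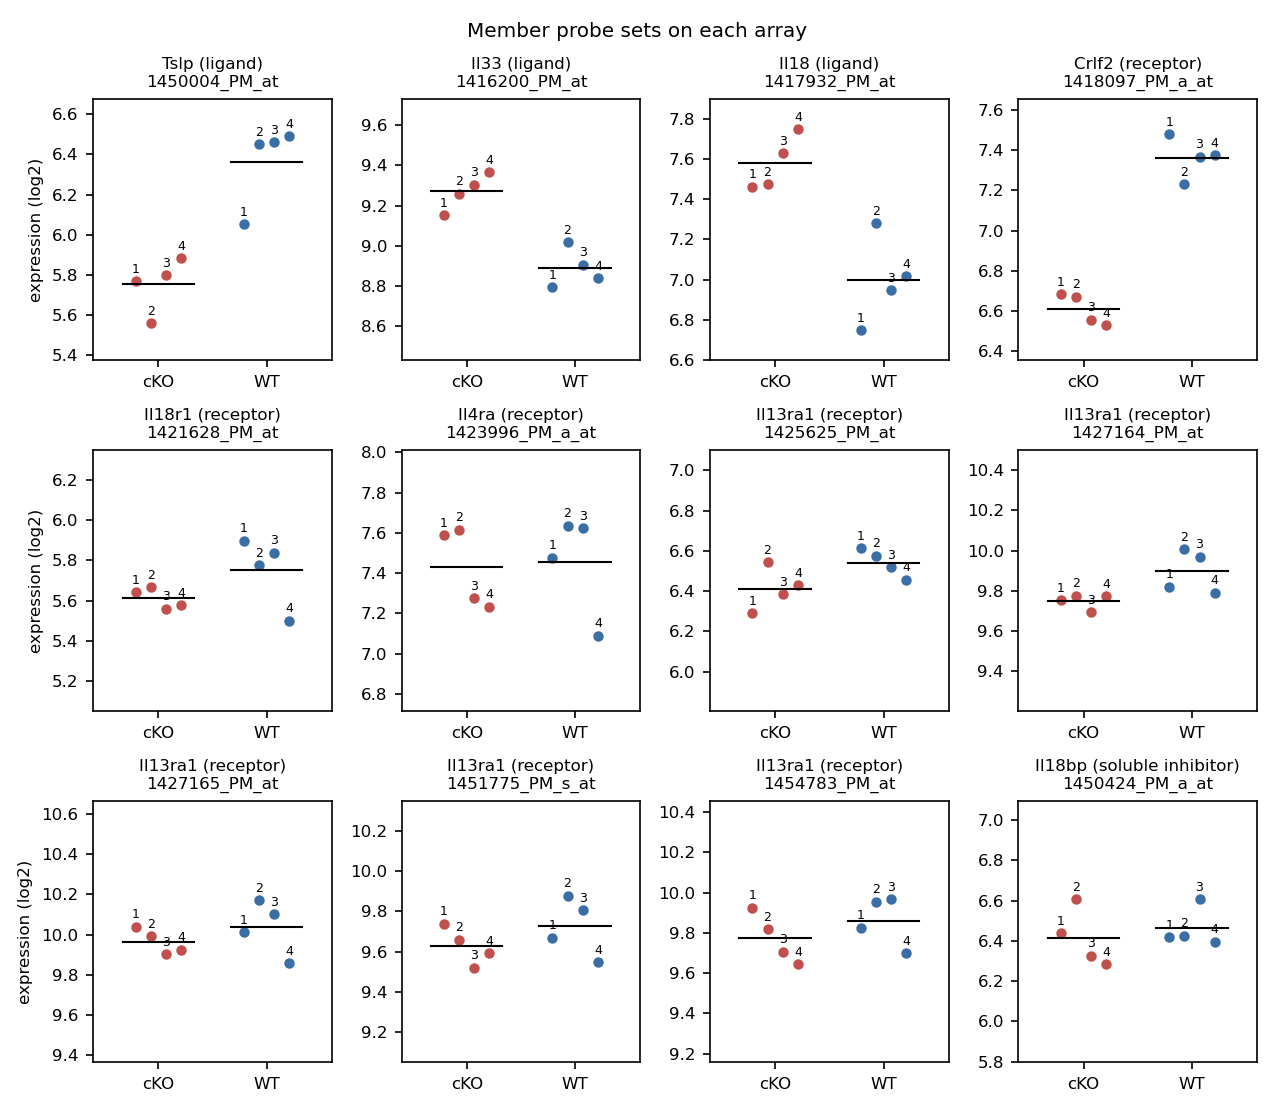
Expression (log2) of the 12 member probe sets on each array, cKO in red at left and WT in blue at right; numbers are the replicate numbers, black lines the group means, and all panels span 1.3 log2 units. Tslp and Crlf2 lie lower and Il33 and Il18 higher on all 4 cKO arrays than on all 4 WT arrays, while in the other panels the groups overlap, save for Il13ra1 1427164_PM_at.

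The IL-18 receptor gene overlapped between the groups, unlike Il18. At 1421628_PM_at, Il18r1 read 5.64, 5.67, 5.56 and 5.58 on the cKO arrays, against 5.90, 5.78, 5.84 and 5.50 on the WT arrays. WT 4 lay below all cKO arrays and the other 3 WT arrays above them. The difference was -0.14 (SE 0.08), and -0.23 without WT 4. The mean of Il18r1 over the 8 arrays was below the median of all probe sets, making it the 1 member probe set of 12 that a filter on dim probe sets would remove. Il18bp, the inhibitor that binds free IL-18, read at 1450424_PM_a_at 6.44, 6.61, 6.33 and 6.28 on the cKO arrays, against 6.42, 6.43, 6.61 and 6.40 on the WT arrays. The groups overlapped widely, with means of 6.41 ± 0.15 in cKO and 6.46 ± 0.10 in WT and a difference of -0.05 (SE 0.08). This became -0.11 without cKO 2, 0.00 without WT 3 and -0.14 without both cKO 2 and WT 4.

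Of the IL-4 and IL-13 receptor chains, Il4ra was split within the groups rather than between them. At 1423996_PM_a_at it read 7.59, 7.62, 7.28 and 7.23 on the cKO arrays, against 7.48, 7.64, 7.62 and 7.09 on the WT arrays. The arrays cKO 3, cKO 4 and WT 4 were low and the other 5 high. The difference between genotypes was -0.03 (SE 0.14). It was -0.15 without WT 4, 0.04 without cKO 4 and -0.21 without both cKO 2 and WT 4. These 3 arrays are those with the lowest scores on the first principal component, and its part in the result was not tested. They were also the lowest for Socs3, a feedback inhibitor of cytokine receptors that signal through JAK and STAT proteins: 9.28, 9.38, 8.61 and 8.70 on the cKO arrays and 9.48, 9.56, 9.48 and 8.67 on the WT arrays.

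Il13ra1, the chain that pairs with Il4ra, was lower in cKO at each of its 5 probe sets, by small amounts of -0.15 to -0.07 (SE 0.06 to 0.08). Its probe set furthest from 0, 1427164_PM_at, read 9.76, 9.78, 9.69 and 9.77 on the cKO arrays, against 9.82, 10.01, 9.97 and 9.79 on the WT arrays. The groups stood side by side without overlap, with cKO 2 and WT 4 almost level. The other 4 probe sets overlapped between the groups. WT 4 was the lowest WT array in all 5. It was so in all 7 receptor probe sets besides Crlf2, and in 32.3% of all probe sets. As 5 of the 7 are repeat measures of Il13ra1, they are not independent of each other. Without WT 4 and cKO 2 the differences of these 7 were between -0.24 and -0.14. Leaving out the lowest WT array moves each of them downward by construction.

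Set side by side, the ligands went both ways and the receptor differences 1 way, though the sign of Il4ra held in only 12 of 16 settings. The ligand differences were -0.61, 0.38 and 0.58, and none of the 3 overlapped between groups. The 8 receptor differences were all below 0, with a median of -0.11, but apart from Crlf2 they spanned only -0.15 to -0.03, and 5 of the 8 are repeat measures of Il13ra1. Over all probe sets the median difference was 0.00 and 47.0% lay below 0. By limma with Benjamini-Hochberg adjustment, 2 of the 12 probe sets passed the threshold of 0.05, Il33 higher and Crlf2 lower in cKO, where 0.466% of all probe sets did, 0.393% higher and 0.0733% lower. Groups did not overlap at 5 of the 12, 2 higher and 3 lower, where this held for 4.89% of all probe sets, 3.17% higher and 1.72% lower. Since the genes were chosen on this comparison, neither count is read against its background. After median centring or cyclic loess normalisation 2 of the 12 also passed, but both were lower in cKO, and Il33 was no longer among them. When 1 array was left out, Il33 was past the threshold in 2 of the 8 fits.

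**Figure D2:**
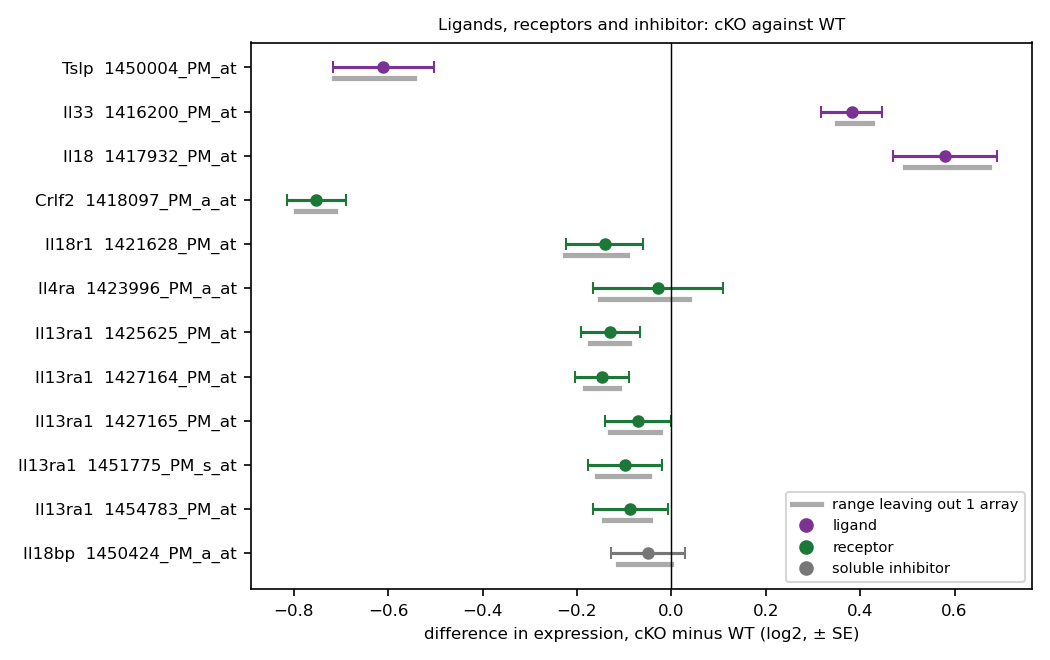
Difference in expression of each member probe set, cKO minus WT (log2), with its SE from the limma fit; grey bars give the range of the difference when each of the 8 arrays was left out in turn. Crlf2 and Tslp lie far left at -0.75 and -0.61, Il33 and Il18 at right at 0.38 and 0.58, and the other 8 lie between -0.15 and -0.03.

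Other genes of these pathways were examined next, in 5 lists of 93 genes, of which 78 were measured by 120 probe sets. None of the 120 passed the threshold in either direction (limma, Benjamini-Hochberg adjusted over all 45037 probe sets), and 12 had an unadjusted p under 0.05, where 7.98% of all probe sets did. The groups did not overlap at 6 that were higher and 3 that were lower in cKO, where this held for 3.17% and 1.72% of all probe sets.

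The list of TSLP and IL-7 receptor partners and JAK-STAT genes held 13 measured genes with 21 probe sets and a median difference of -0.01. It covers IL-7 signalling as well as that of TSLP, so a gene in it need not act downstream of TSLP. None passed and 1 had an unadjusted p under 0.05. The kinase gene Jak3, whose product serves receptors with the common gamma chain, read 5.59, 5.47, 5.68 and 5.55 on the cKO arrays, against 5.18, 5.34, 5.14 and 5.31 on the WT arrays. The groups did not overlap, but the difference of 0.33 (SE 0.06) did not pass (limma adjusted p = 0.0755), and a second probe set of Jak3 stood at 0.03. Both probe sets averaged below the median of all probe sets, the first at 5.57 in cKO and 5.24 in WT. That first one passed with 1 probe set a gene (limma adjusted p = 0.0466), with array weights (0.0130) and without both cKO 2 and WT 4 (0.0446). Its adjusted p ranged from 0.0130 to 0.276 over 15 alternatives. The other genes named by size stood at -0.31 for Socs3, at -0.19 for Stat5a, the transcription factor activated by TSLP, and at 0.15 for the phosphatase gene Ptpn6. Their limma adjusted p was 0.872, 0.692 and 0.742. Without both cKO 2 and WT 4, Socs3 stood at -0.64 (limma adjusted p = 0.103) and Ptpn6 at 0.26 (0.0790). The second probe sets of Jak3 and Stat5a turned in sign, to -0.03 and 0.01.

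For IL-33 and IL-18, the list of receptor partners and MyD88 signalling held 15 measured genes with 31 probe sets and a median of 0.02. None passed and 3 had an unadjusted p under 0.05. Il1rap encodes the accessory chain that the IL-33 receptor shares with that of IL-1. It stood at -0.29 (SE 0.11, limma adjusted p = 0.549) and at -0.21 at 2 probe sets above the median of all probe sets. Its other probe sets, with means below 5 on the log2 scale, went both ways, up to 0.14. Il18rap, the accessory chain of the IL-18 receptor, stood at 0.12 (adjusted p = 0.603) and 0.04 at its 2 probe sets, with means below 5 on the log2 scale. Tnfaip3, an inhibitor of NF-kB signalling, stood at 0.26 with an SE of 0.25, and Tollip, which binds IL-1 receptor complexes, at 0.10 (limma adjusted p = 0.920 and 0.814). Without both cKO 2 and WT 4, Tnfaip3 turned to -0.07, and its second probe set to -0.04 against 0.16 with all arrays. Tollip then stood at 0.05.

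Of the proteases and inflammasome genes that process these cytokines, 12 were measured with 15 probe sets and a median of 0.05. None passed and 2 had an unadjusted p under 0.05. Casp1, the protease that activates IL-18, came nearest to the threshold of all 120 probe sets. It read 8.89, 8.83, 8.98 and 8.86 on the cKO arrays, against 8.53, 8.43, 8.44 and 8.69 on the WT arrays. Each cKO array was above each WT array, with means of 8.89 ± 0.07 in cKO and 8.52 ± 0.12 in WT, and the difference of 0.37 (SE 0.06) gave a limma adjusted p of 0.0559. Across 16 alternatives the adjusted p of Casp1 ran from 0.00609 to 0.214, and it passed in 4: with 1 probe set a gene, with array weights, without WT 4, and without both cKO 2 and WT 4. Casp8, an apoptosis protease, did not overlap between the groups either, at a difference of 0.18 (SE 0.05, limma adjusted p = 0.197), and passed only with array weights (adjusted p = 0.0404, up to 0.588 over 16 alternatives). Casp4, of the non-canonical inflammasome, stood at 0.25 and the calpain gene Capn2 at -0.11 (adjusted p = 0.809 and 0.932). Without both cKO 2 and WT 4, Casp4 stood at 0.00 and Capn2 at -0.23.

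The type 2 cytokines, their other receptors and response genes were measured for all 21 genes with 24 probe sets. Their median difference was 0.00 and their span -0.19 to 0.26. None passed and 1 had an unadjusted p under 0.05, Il9, a T cell and mast cell cytokine, at -0.12 (limma adjusted p = 0.483). Il4, Il5, Il13 and Il31, the products of type 2 lymphocytes, averaged 3.63 to 4.51 in cKO and 3.62 to 4.49 in WT, all below the median of all probe sets. The oncostatin M receptor gene Osmr stood at -0.19, the IL-25 receptor gene Il17rb at 0.26 and its partner Il17ra at -0.12, with limma adjusted p of 0.682, 0.823 and 0.938. Without both cKO 2 and WT 4, Il17rb stood at 0.45 and Il17ra at -0.24 (adjusted p = 0.137 and 0.342). Another probe set of Il17ra then stood at -0.08, against -0.03 with all arrays. The other 2 probe sets of Osmr, at -0.16 each with all arrays, then stood at -0.25 and -0.42.

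Genes known to regulate Tslp in keratinocytes were measured for 17 of 21 with 29 probe sets and a median of -0.04. None passed and 5 had an unadjusted p under 0.05. Klk7, a kallikrein protease of the cornified layer, read 7.96 ± 0.19 in cKO and 8.49 ± 0.24 in WT (difference -0.54, SE 0.13, limma adjusted p = 0.177). It passed only with array weights (adjusted p = 0.0499, up to 0.455 over 16 alternatives). Orai1, the calcium channel through which protease signals induce Tslp, read 7.46, 7.46, 7.73 and 7.73 on the cKO arrays, against 8.03, 8.02, 8.00 and 7.77 on the WT arrays. The groups did not overlap at this probe set, and WT 4 came within reach of cKO 3 and cKO 4. At a second probe set they overlapped, with cKO 4 at 8.13 and WT 4 at 8.09. The differences of Orai1 at these 2 probe sets, -0.36 and -0.23, did not pass (limma adjusted p = 0.190 and 0.426). Spink5, the inhibitor of kallikreins, stood at 0.31 and the barrier protein gene Flg at -0.31 (adjusted p = 0.800 and 0.634). Flg averaged only 4.57 in cKO and 4.88 in WT, below the median of all probe sets.

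**Figure D3:**
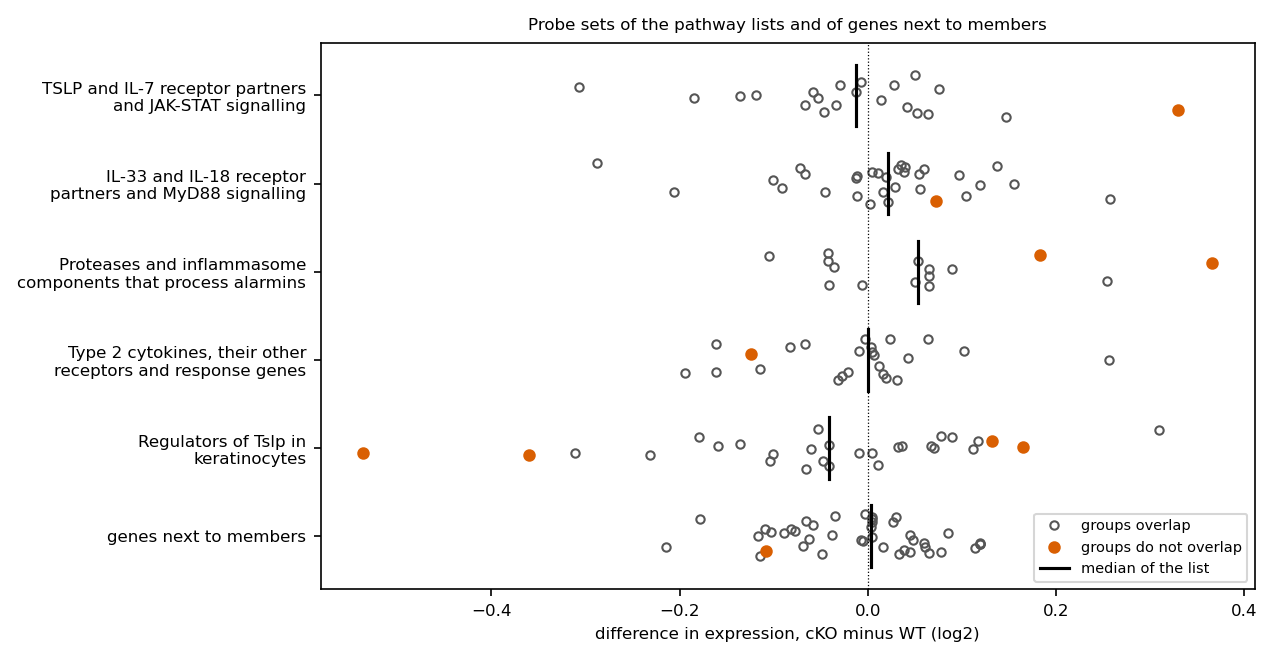
Difference in expression, cKO minus WT (log2), of each probe set in the 5 pathway lists and among genes next to members; filled points mark probe sets whose cKO and WT arrays do not overlap, and black bars the list medians. Medians lie between -0.04 and 0.05, and the points furthest out are Klk7 at -0.54 and Casp1 at 0.37.

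Genes next to the members on the chromosome were examined as well. Of the 36 protein-coding genes that lie within 2 places of a member in the reference order, 27 had probe sets, 42 in all. None of the 42 passed, 2 had an unadjusted p under 0.05, and the median was 0.00. The largest difference was that of Ranbp6, next to Il33, at -0.21 (SE 0.12, limma adjusted p = 0.754), opposite in sign to Il33, and at -0.06 without both cKO 2 and WT 4. No neighbour of Crlf2 was measured. Il1rl1, Il18r1 and Il18rap lie next to each other.

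The probe sets most alike in pattern were sought among 28886 of other single genes, by the root mean square difference of values centred on their own mean over the 8 arrays. For Crlf2 these were Nop53, a ribosome biogenesis factor (0.07), Ptprz1, a receptor tyrosine phosphatase (0.09), and the homeobox gene Hoxb6 (0.09), against 0.38 for the spread of Crlf2 itself. For Tslp they were Dio2, the deiodinase that activates thyroid hormone (0.11), the lipoprotein receptor gene Vldlr (0.14) and Nop53 at another probe set (0.16), against 0.34. Nop53 thus stood near both Crlf2 and Tslp. For Il33 they were Ufc1, of the ufmylation pathway (0.04), the selenoprotein gene Selenow (0.05) and Acaa2, of mitochondrial fatty acid oxidation (0.06), against 0.21. For Il18 they were the sugar transporter gene Slc5a9, the retinoid-responsive Rarres1 and neuritin, Nrn1 (0.08 each), against 0.33. Since the measure counts the genotype difference, it selects genes that differ between the groups by a like amount.

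**Figure D4:**
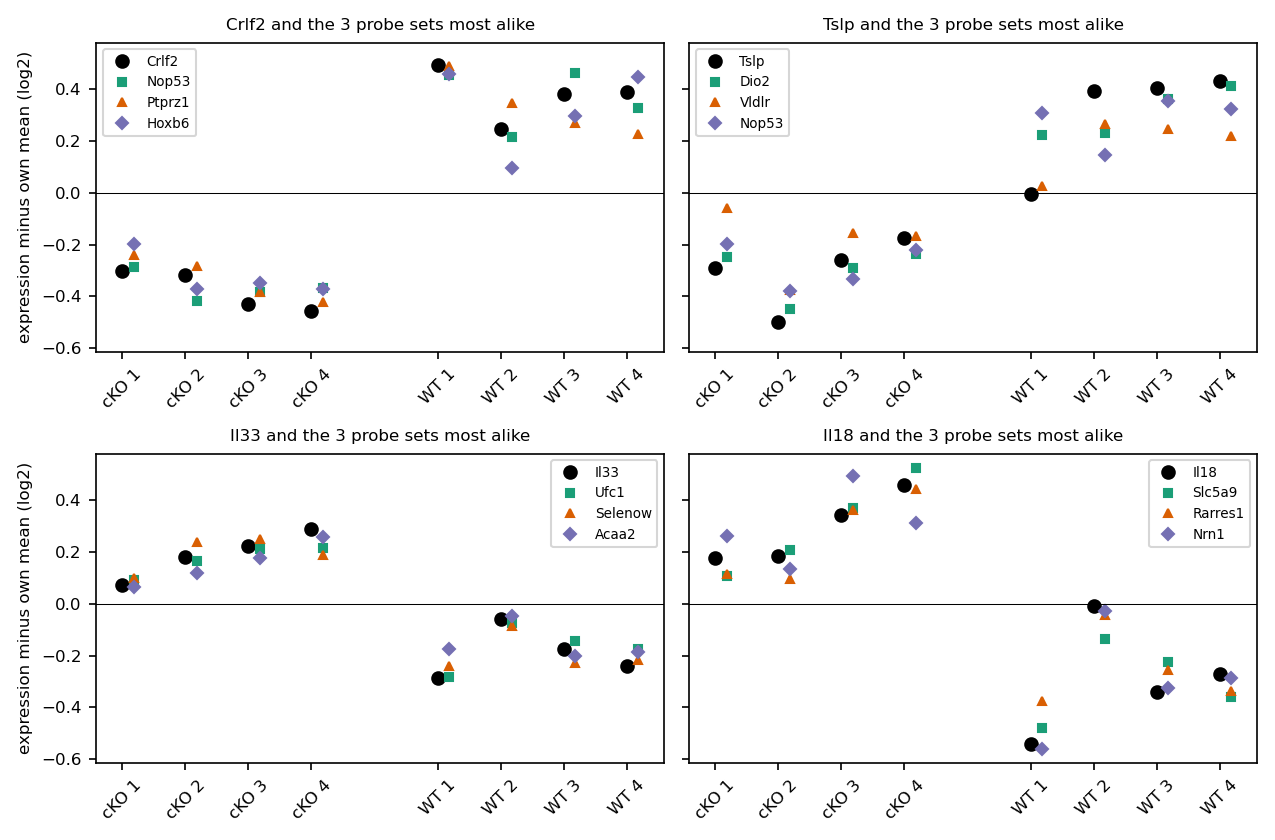
Expression minus its own mean (log2) on each of the 8 arrays for Crlf2, Tslp, Il33 and Il18 (black) and the 3 probe sets most alike to each. The Il33 companions Ufc1, Selenow and Acaa2 lie closest, within 0.06 root mean square, and the Tslp companions farthest, up to 0.16.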

How the data were processed

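The 10 genes and the pathway lists were chosen with earlier results of these data known. Per the labels' protocols, 25 ng of RNA per sample were amplified in 17 cycles and hybridised to 1-colour arrays. The deposited values are log2 expression per probe set, which the authors made with RMA per the submitters' processing notes. The sources used here do not name its version or settings, and the log base is inferred from the range of the values, 3.06 to 13.0. RMA normally includes quantile normalisation, after which a shift of all genes together cannot be seen. Without scanner files, detection calls could not be made. Leaving out 104 control probe sets of 45141 rows left 45037. The platform annotation gives 1 gene for 28898 of these, several for 551 and none for 15588. Current symbols and the order of genes came from a RefSeq table (GRCm38.p6) that held the Entrez numbers of 28689.

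Groups came from the labels, with 4 arrays each, and this number limits the precision. Differences are cKO minus WT. They were tested with lmFit and eBayes of limma 3.58.1 under R 4.3.3, using all probe sets without a filter on level. The tests were two-sided, and p-values were adjusted after Benjamini and Hochberg over all 45037, with a threshold of 0.05. The script was tested on simulated data. Alternatives were a replicate block, a filter on dim probe sets (mean of at least 5.75), median centring, cyclic loess, a prior with trend, array weights, a gene table (for each gene the probe set of highest mean), a threshold of 0.1, and leaving out arrays.

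Named are all member probe sets and Ehmt2. In each pathway list up to 4 genes are named, those past the threshold first and then by size of difference. Among neighbours the largest difference is named, and for Crlf2, Tslp, Il33 and Il18 the 3 probe sets most alike. Cd74, H2-Aa, Cd207, Il4, Il5, Il13 and Il31 were named after their values were seen. RefSeq promoter windows were matched by symbol for 9 of the 10 genes. Plots were drawn with matplotlib 3.10.9.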

Additional observations from a re-analysis of the deposited data

Results flagged for a closer look

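Each member probe set was checked in both genotypes for an array far from the other 3, by Dixon's test. Of 24 such groups of 4 arrays, 2 held one, and chance alone flags about 1 in 20. Tslp in WT 1 read 6.05, which was 0.40 below the nearest WT array, and its difference between genotypes was -0.71 without that array and -0.61 with it. Il18bp in WT 3 read 6.61, which was 0.18 above the nearest WT array, and its difference was 0.00 without that array and -0.05 with it.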

How the results depend on the processing

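Of 187 differences of member probe sets under the alternatives, all 187 moved by less than 1 SD between replicates, but most could not have moved further. Leaving out 1 of 4 arrays cannot shift a difference by 1 SD. The replicate block, the filter, the prior with trend and the gene table leave a difference unchanged by construction. The sign of Il4ra held in 12 of 16 settings and that of Il18bp in 15 of 16. Counts past the threshold depended on the setting. Over all probe sets 210 passed, against 132 after the filter on dim probe sets, 758 with array weights, 343 at a threshold of 0.1, 657 without both cKO 2 and WT 4, and 104 (without WT 1) to 356 (without WT 4) when 1 array was left out. Of the member probe sets 2 passed, against 1 after the filter on dim probe sets, 4 with array weights, 4 in the gene table, 4 at a threshold of 0.1, 1 without both arrays, and 1 to 3 when 1 array was left out. Of the pathway probe sets 0 passed, against 4 with array weights, 2 in the gene table, 2 at a threshold of 0.1, 2 without both arrays, and 0 to 1 when 1 array was left out. Of the neighbours' probe sets 0 passed, 1 without both arrays, and 0 when any 1 array was left out. The gene table tests fewer features. The causes of the other shifts were not tested.

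Whether the replicate numbers pair the samples was not settled. Deviations of same-numbered arrays from their group means correlated at 0.134, 0.221, -0.624 and 0.368. No correlations of differently numbered arrays are given beside them, so these values cannot decide it. With the replicate number as a block, 175 of all probe sets, 1 member probe set, 0 pathway probe sets and 0 of the neighbours' passed. Levels near the median of all probe sets, as for Tslp in cKO and Il18r1, carry no measure of signal over background here.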
